A study of Mus musculus with 4 samples.

Results

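The transcripts described here encode 9 nuclear proteins that act between an active enhancer and an elongating RNA polymerase II (Pol II). Ep300 and Crebbp encode the paralogous acetyltransferases p300 and CBP, and Med1 encodes a subunit of the Mediator complex. Cdk9, Ccnt1 and Ccnt2 encode the kinase and the alternative cyclins of P-TEFb, Hexim1 and Larp7 encode proteins of the 7SK particle that holds P-TEFb inactive, and Setd2 encodes the methyltransferase that trimethylates H3K36 over transcribed gene bodies. They were taken by name, as the entries carrying these symbols in the expression tables. All 9 were found once in each of the 4 libraries, among 24850 symbol entries in the total RNA tables and 24992 in the polyA tables.

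C2C12, an established mouse myoblast line, was used as a proliferating myoblast (MB) culture and as myotubes (MT) formed in differentiation medium (DM). The MB library, labelled DM -24 hours, and the MT library, labelled DM 72 hours, were strand-specific libraries of total RNA freed of rRNA, and nothing in their labels gives them a transfection or a genetic change. The remaining pair were polyA libraries of MT at DM 48 hours, 1 named si-hnRNPL and 1 named si-NC after the siRNA against the RNA-binding protein hnRNPL and the negative control siRNA, and both of these cultures were therefore transfected. Each condition had 1 library (4 in all), so the differences below could not be set against the spread between cultures and stand without p-values. Every level is in FPKM, fragments scaled to transcript length and to the size of the library, with the 95% interval that the quantification gave for that library, an interval that covers counting and assignment of fragments and not the spread between cultures. In these cultures, fewer cells of a type and less RNA per cell cannot be told apart.

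As background, transcription factors bound at an enhancer recruit p300 or CBP, which acetylate histones there, H3K27 among the sites, and Mediator, which bridges the enhancer-bound factors and Pol II at the promoter. Pol II commonly pauses shortly after initiation, held by NELF and DSIF, and P-TEFb releases it by phosphorylating these factors and the C-terminal domain (CTD) of Pol II. HEXIM1, bound to the 7SK RNA, inhibits CDK9 within the 7SK particle, LARP7 binds and stabilises the 7SK RNA, and SETD2 travels with the elongating polymerase. In muscle cells these factors serve the enhancers bound by MyoD and the genes that those enhancers activate.

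The cultures were first checked against markers of their labels. All 8 myotube markers, among them Myog, Myh3 and Ckm, were higher in MT than in MB, with a median log2 change of 6.0 and a summed level of 16.1 FPKM in MB and 1313 FPKM in MT. All 8 proliferation markers were lower, with a median of -2.53, but their summed level of 102 FPKM in MT against 626 FPKM in MB shows that they remained detected there. Of 6 satellite or reserve cell markers, Spry1 was higher in MT at 18.2 against 1.26 FPKM, a log2 change of 3.09. The log2 changes of the others were smaller, at 0.53 for Pax7, -0.01 for Myf5, -0.25 for Sdc4 and -0.57 for Cd34. Pax3 stood at only 0.016 FPKM in MB and 0.027 FPKM in MT. The summed level was 166 FPKM in MB and 154 FPKM in MT, of which Sdc4 made up 102 and 85.2 FPKM. Of 8 fibroblast, endothelial, immune and nerve markers, 6 averaged under 1 FPKM over MB and MT, and Ptprc was listed at 0 in MB. Decorin (Dcn) went from 0.503 to 63.1 FPKM, carrying the list's summed level from 3.89 to 67.4 FPKM. Pdgfra, also a fibroblast marker, went only from 2.14 to 3.38 FPKM, a log2 change of 0.48. Cell makeup was not measured, and the part of these marker changes in the members' values was not tested. Hnrnpl itself stood at 111 FPKM (109 to 113) in MB and 63.0 FPKM (61.8 to 64.2) in MT, and at 95.1 FPKM in si-NC and 85.9 FPKM (83.1 to 88.7) in si-hnRNPL, a log2 change of only -0.14 (-0.20 to -0.09) in the targeted transcript.

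The 250 bases before the annotated start of the 3 members that passed the fold threshold between MB and MT are shown here, because these members moved in opposite directions: Hexim1 and Ccnt2 upward and Larp7 downward. The sequences are from RefSeq on GRCm38.p6, which is not the build of the expression tables (mm9), and are written 5′ to 3′ on the strand of the gene. Capitals mark the motif CAGGTG, an E-box that MyoD can bind, the motif CCAAT that NF-Y can bind, and the GC box GGGCGG. Each was searched on both strands, so that the first also appears as CACCTG, the second as ATTGG and the third as CCGCCC, and overlapping matches run together.
Hexim1: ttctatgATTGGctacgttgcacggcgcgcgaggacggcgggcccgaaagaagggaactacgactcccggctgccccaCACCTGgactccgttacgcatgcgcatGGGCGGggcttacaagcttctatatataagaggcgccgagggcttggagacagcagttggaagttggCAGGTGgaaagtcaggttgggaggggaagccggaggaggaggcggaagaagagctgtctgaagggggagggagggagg
Ccnt2: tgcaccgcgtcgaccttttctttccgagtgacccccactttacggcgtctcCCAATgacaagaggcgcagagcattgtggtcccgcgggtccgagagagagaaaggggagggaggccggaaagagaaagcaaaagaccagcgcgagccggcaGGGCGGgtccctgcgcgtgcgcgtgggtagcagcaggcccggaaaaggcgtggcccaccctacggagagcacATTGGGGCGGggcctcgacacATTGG
Larp7: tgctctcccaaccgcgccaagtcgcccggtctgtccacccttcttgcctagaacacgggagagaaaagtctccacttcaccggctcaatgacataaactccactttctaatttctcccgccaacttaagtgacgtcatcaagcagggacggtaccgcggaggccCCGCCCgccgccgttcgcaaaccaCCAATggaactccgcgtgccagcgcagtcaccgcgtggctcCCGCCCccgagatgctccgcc
The Hexim1 stretch lies at chr11:103116075-103116324 on the plus strand, the Ccnt2 stretch at chr1:127773914-127774163 on the plus strand and the Larp7 stretch at chr3:127553350-127553599 on the minus strand. Hexim1 had CAGGTG 2 times, CCAAT 1 time and GGGCGG 1 time. Ccnt2 had 3 matches to CCAAT and 2 to GGGCGG, with 1 of each sharing letters, and Larp7 had 1 match to CCAAT and 2 to GGGCGG. All 9 members had GGGCGG, which 32.7% of 32851 RefSeq promoter stretches of this length hold. CCAAT was in 5 members (Ccnt2, Cdk9, Hexim1, Larp7 and Med1) and in 33.8% of all promoters, while CAGGTG was in 2 members (Ccnt1 and Hexim1) and in 17.2% of all. Neither CAGCTG, another E-box (13% of all promoters), nor the exact letters TATAAA (12.4%) were in any member's stretch. Variants of these motifs, such as other TATA-like stretches, were not searched. The members' promoters were GC-rich, at 61.2% to 84% GC with 18 to 44 CpG against medians of 52.4% and 6 over all promoters. These matches describe the letters only, and no binding was measured here.

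In all 4 libraries every member was expressed at a middle to high level, between the 42.3 and the 85.4 percentile of the symbol entries above 0. The estimates rested on about 2079 to 12775 fragments per member in total RNA and 422 to 5137 in polyA RNA, as back-calculated from the width of each interval. The levels below are per length and can be set beside each other within a library. Total and polyA tables were normalized separately, so levels are given side by side across them with no change drawn.

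Of the acetyltransferases, Ep300 (mm9 chr15:81416644-81482507, plus strand, up to 31 exons) stood at 8.73 FPKM (8.51 to 8.95) in MB and 8.55 FPKM (8.34 to 8.77) in MT. In the polyA pair it stood at 16.9 FPKM (16.4 to 17.4) in si-NC and 14.2 FPKM (13.7 to 14.7) in si-hnRNPL. The intervals overlapped between MB and MT and stood apart between the siRNA cultures. Crebbp (chr16:4084048-4213404, minus strand, up to 32 exons) was listed at 7.17 FPKM (6.95 to 7.39) in MB and 6.70 FPKM (6.49 to 6.90) in MT. Its polyA levels of 4.24 FPKM (3.98 to 4.49) in si-NC and 4.20 FPKM (3.89 to 4.52) in si-hnRNPL overlapped. Crebbp was the lowest of the members in every library, although its interval in MB overlapped that of Ccnt2.

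Med1 (chr11:98013469-98054607, minus strand), whose product is the Mediator subunit contacted by nuclear receptors and other activators, had 26.3 FPKM (25.6 to 27.0) in MB and 20.6 FPKM (20.01 to 21.2) in MT. It had 20.1 FPKM (19.1 to 21.1) in si-NC and 18.9 FPKM (17.7 to 19.998) in si-hnRNPL, with overlapping intervals. Med1 was thus more abundant than Ep300 and Crebbp in each library, its ratio to Ep300 being 3.01 in MB, 2.41 in MT, 1.19 in si-NC and 1.33 in si-hnRNPL.

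Cdk9 (chr2:32561302-32568304, minus strand), the kinase of P-TEFb, stood at 13.9 FPKM (13.5 to 14.4) in MB and 9.60 FPKM (9.23 to 9.97) in MT. In polyA RNA it was at 19.6 FPKM (18.8 to 20.4) in si-NC and 21.3 FPKM (20.3 to 22.4) in si-hnRNPL, which overlapped. Of its cyclin partners, Ccnt1 (chr15:98373642-98398067, minus strand) gave 20.9 FPKM (20.2 to 21.6) in MB and 21.9 FPKM (21.2 to 22.6) in MT, again with overlapping intervals. Ccnt1 was at 11.5 FPKM (10.6 to 12.5) in si-NC and 11.8 FPKM (10.6 to 12.9) in si-hnRNPL. Its locus overlaps the start of the entry 9330020H09Rik by 313 bases, an entry at only 1.25 FPKM in MB and 1.51 FPKM in MT. Ccnt2 (chr1:129670741-129701414, plus strand) stood at 7.48 FPKM (7.15 to 7.81) in MB and 11.8 FPKM (11.4 to 12.2) in MT, with the intervals well apart. Its polyA levels were 11.7 FPKM (11 to 12.3) in si-NC and 10.1 FPKM (9.36 to 10.8) in si-hnRNPL.

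Of the 7SK particle proteins, Hexim1 (chr11:102977639-102981038, plus strand, 1 exon) stood at 11.1 FPKM (10.7 to 11.5) in MB and 20.8 FPKM (20.2 to 21.3) in MT. It was the highest member in both polyA libraries, with 35.5 FPKM (34.3 to 36.6) in si-NC and 37.4 FPKM (35.9 to 38.8) in si-hnRNPL, which overlapped. Larp7 (chr3:127239632-127256267, minus strand) went the other way, from 30.2 FPKM (29.4 to 31.1) in MB, where it was the highest member, to 14.3 FPKM (13.7 to 14.9) in MT. Its polyA levels were 27.5 FPKM (25.8 to 29.3) in si-NC and 23.0 FPKM (21.2 to 24.7) in si-hnRNPL. The miRNA entries Mir302a to Mir302d and Mir367, which lie inside the Larp7 locus, were listed at 0 in all 4 libraries. Of the RNA that these proteins bind, 7SK, no value was analysed here.

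Setd2 (chr9:110435101-110521137, plus strand, up to 21 exons) had 14.5 FPKM (14.2 to 14.8) in MB and 18.0 FPKM (17.7 to 18.3) in MT. It had 11.7 FPKM (11.3 to 12.1) in si-NC and 10.3 FPKM (9.87 to 10.8) in si-hnRNPL. Both pairs of intervals stood apart, upward in MT and downward in si-hnRNPL.

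**Figure D1:**
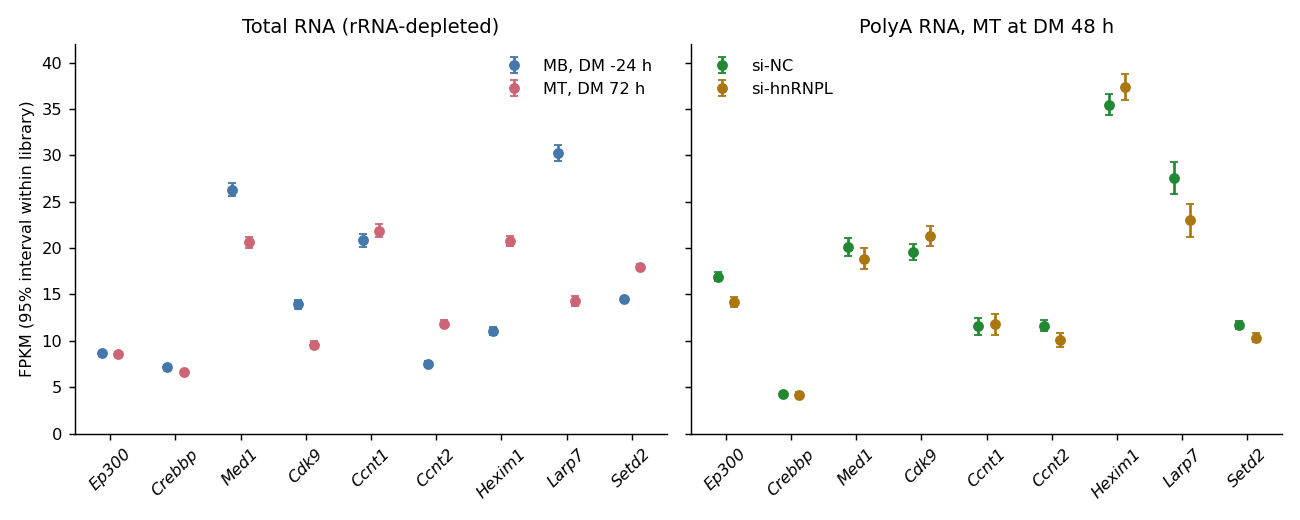
FPKM of each member (vertical axis) in the total RNA libraries of MB and MT (left) and the polyA libraries of si-NC and si-hnRNPL (right), each point being 1 library and each bar its 95% interval within that library. Larp7 stands highest in MB at 30.2 FPKM and Hexim1 highest in both polyA libraries at 35.5 and 37.4 FPKM, and Crebbp lies at the bottom of every library.

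The order of the levels differed between MB and MT. In MB it ran Larp7, Med1, Ccnt1, Setd2, Cdk9, Hexim1, Ep300, Ccnt2 and Crebbp, where Setd2 and Cdk9, and Ccnt2 and Crebbp, were neighbours with overlapping intervals. In MT it ran Ccnt1, Hexim1, Med1, Setd2, Larp7, Ccnt2, Cdk9, Ep300 and Crebbp, and Ccnt1, Hexim1 and Med1 each overlapped their neighbour at the top. In si-NC the order was Hexim1, Larp7, Med1, Cdk9, Ep300, Setd2, Ccnt2, Ccnt1 and Crebbp, with overlap between Med1 and Cdk9 and along Setd2, Ccnt2 and Ccnt1. In si-hnRNPL it was Hexim1, Larp7, Cdk9, Med1, Ep300, Ccnt1, Setd2, Ccnt2 and Crebbp, so that the places exchanged between the siRNA cultures, Cdk9 with Med1 and Ccnt1 with Setd2 and Ccnt2, lay among members whose levels overlapped in si-NC, while in si-hnRNPL Cdk9 and Med1 stood apart.

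The comparison of MT with MB asks how the machinery of enhancer activity and elongation is set during differentiation. Changes are given as log2((FPKM + 1) ratio), a scale that slightly understates the fold of low genes, and are called higher or lower at 0.58, the 1.5-fold threshold of the study. Of the 9 members, Hexim1 and Ccnt2 were called higher, Larp7 was called lower and 6 lay between the thresholds. Over the 11469 symbol entries with a mean of at least 1 FPKM, 14.6% were called higher, 28.9% lower and 43.5% in either direction, so 3 of 9 is no larger a share than among all genes. The median change over all these genes was -0.21, and the members' median was -0.03, or 0.19 after subtracting the median of all genes. After that centring, 21.1% of all genes were called higher, 19.4% lower and 40.5% in either direction, and the higher share of all calls went from 33.5% to 52.1%, while the members called were again Hexim1 and Ccnt2 higher and Larp7 lower.

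Hexim1 changed by 0.85 (95% interval 0.79 to 0.91), or 1.06 centred, a ratio of 1.87 that lay above 90.5% of all genes. Ccnt2 changed by 0.60 (0.53 to 0.67), or 0.81 centred, which is just past the threshold, and its call was lost after correction for exon length (0.32) and for exon length with GC content (0.21). Larp7 changed by -1.03 (-1.10 to -0.96), or -0.82 centred, a ratio of 0.473, and only 12.8% of all genes were lower in this ranking. The inhibitor of P-TEFb and the partner that stabilises its RNA scaffold therefore lay on opposite sides of the distribution, and both kept their side after correction for exon length and GC content, at 0.91 for Hexim1 and -0.92 for Larp7. Scaling both libraries to the same sum over symbol entries put Larp7 at -0.01, a setting in which 7 members were called higher. The median of all genes was then 0.74, and 6841 of the 11469 genes were called higher and 671 lower. Larp7 thus stayed below that median.

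The 6 members between the thresholds covered both directions. Cdk9 was at -0.49 (-0.56 to -0.43) and Med1 at -0.33 (-0.39 to -0.28), below the median of all genes, and after centring these were -0.28 and -0.12. Setd2 was at 0.30 (0.26 to 0.33), or 0.51 centred, but at -0.04 with the correction for exon length and GC content, which turned its direction, and at 0.66, past the threshold, with both libraries scaled to the same sum over protein-coding genes. The median of all genes was 0.13 in that last setting. Ccnt1 was at 0.07 (0.00 to 0.13), or 0.28 centred and -0.08 with the length and GC correction. Ep300 at -0.03 (-0.07 to 0.02) and Crebbp at -0.09 (-0.14 to -0.03) were the least changed beside Ccnt1, and both moved above 0 after centring, at 0.19 and 0.13. Ep300 alone had an interval of change that held 0.

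**Figure D2:**
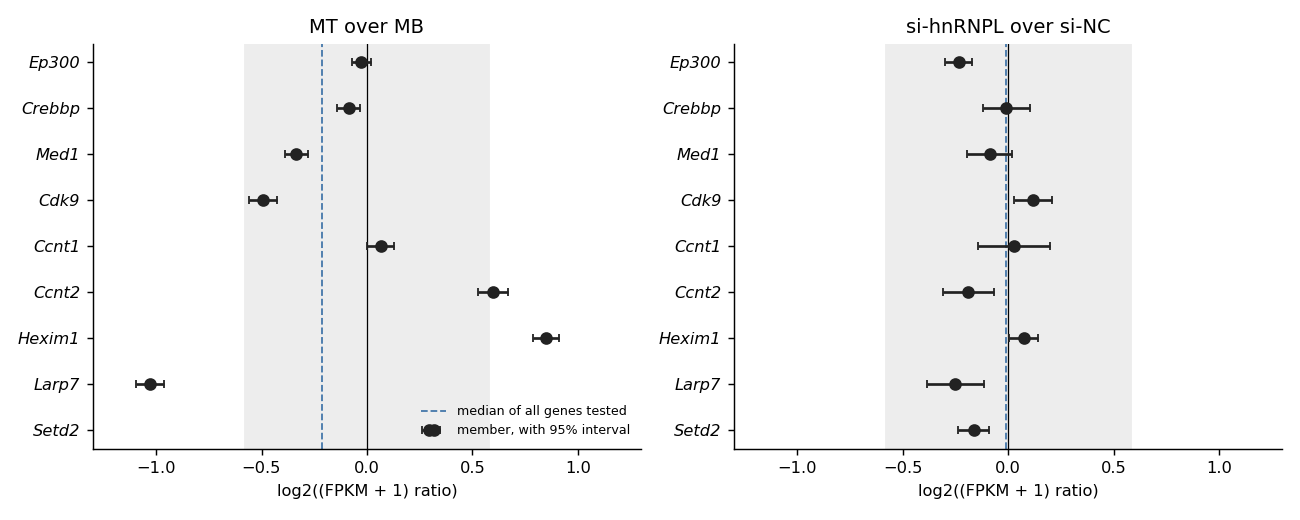
Log2((FPKM + 1) ratio) of each member (horizontal axis) for MT over MB and for si-hnRNPL over si-NC, 1 library per condition, with 95% intervals from the libraries' counting error. The grey band marks changes smaller than 0.58 in either direction and the dashed line the median of all genes (-0.21 and -0.01); Hexim1, Ccnt2 and Larp7 lie outside the band on the left and no member does on the right.

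Ratios between members within a library do not depend on how the libraries were scaled. They still carry any trend with exon length or GC content, and they were not corrected for it. The ratio of Hexim1 to Larp7 was 0.367 in MB and 1.45 in MT, a 3.96-fold change (3.71 to 4.24) and the largest among the 9 ratios compared. Hexim1 to Cdk9 went from 0.796 to 2.16, a change of 2.72-fold (2.54 to 2.91), so the transcript of the inhibitor was below that of the kinase in MB and above it in MT. Larp7 to Cdk9 went from 2.17 to 1.49.

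Of the cyclins, Ccnt2 to Cdk9 went from 0.537 to 1.23, a change of 2.30-fold (2.13 to 2.48), and Ccnt1 to Cdk9 from 1.5 to 2.28, a change of 1.52-fold (1.42 to 1.63). Ccnt1 to Ccnt2 accordingly went from 2.79 in MB to 1.85 in MT, with Ccnt1 the more abundant cyclin transcript in both. Setd2 to Cdk9 went from 1.04 to 1.87. With the length and GC correction the log2 changes of the single genes were 0.21 for Ccnt2, -0.08 for Ccnt1, -0.04 for Setd2 and -0.46 for Cdk9. Among the coactivators, the ratio of Ep300 to Crebbp was 1.22 in MB and 1.28 in MT, and the interval of its change (0.992 to 1.11) included 1.

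The same ratios in the polyA libraries were read separately. Ep300 to Crebbp was 3.99 in si-NC and 3.38 with si-hnRNPL, a change of 0.847-fold (0.760 to 0.943). Ccnt1 to Ccnt2 was 0.991 (0.897 to 1.09) and 1.17 (1.03 to 1.32), a change of 1.18-fold (1.01 to 1.38). Ccnt1 to Cdk9 was 0.590 and 0.553 and Hexim1 to Cdk9 was 1.81 and 1.75, and the intervals of both changes included 1, while those of the other 7 ratios excluded it. Relative to Cdk9, the changes were 0.766-fold (0.681 to 0.863) for Larp7, 0.795-fold (0.711 to 0.890) for Ccnt2 and 0.810-fold (0.743 to 0.884) for Setd2. These intervals hold no correction for exon length or GC content. With it the log2 changes of the single genes were -0.29 for Larp7, -0.01 for Ccnt2, 0.01 for Setd2 and 0.06 for Cdk9. Those of Ep300 and Crebbp were -0.11 and 0.02. Med1 to Ep300 changed by 1.12-fold (1.02 to 1.22). Hexim1 to Larp7 was 1.29 and 1.63, a change of 1.26-fold (1.13 to 1.41), smaller than between MB and MT.

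**Figure D3:**
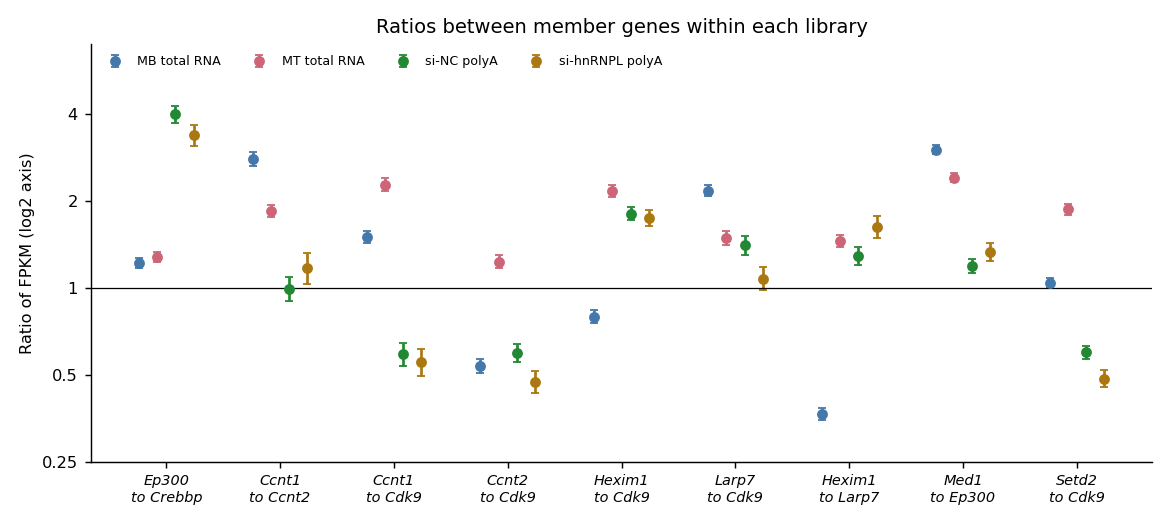
Ratio of FPKM between 2 members within each library (vertical axis, log2 scale), with 95% intervals from counting error, for 9 pairs in MB, MT, si-NC and si-hnRNPL. Hexim1 to Larp7 and Hexim1 to Cdk9 lie below 1 in MB, at 0.367 and 0.796, and above 1 in the 3 MT libraries.

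The comparison of si-hnRNPL with si-NC asks how these transcripts differed in the culture labelled with the siRNA against hnRNPL. The ratio of the Hnrnpl transcript between these libraries was 0.904, a change with 23.4% of all genes below it, so these values do not show a knockdown of a size beyond the spread of other genes, and each direction below rests on the label. The study examined the knockdown in protein by Western blot, a level that these RNA values do not measure. No member passed the threshold in either direction. Among 11233 symbol entries with a mean of at least 1 FPKM, 1.36% were called higher, 0.864% lower and 2.23% in either direction, so a count of 0 in 9 is near what all genes gave. After centring, 1.45% of all genes were called higher and 0.775% lower, and again 0 members. The standard deviation of the change over all genes was 0.31.

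The lowest values were those of Larp7 at -0.25 (-0.39 to -0.11), Ep300 at -0.24 (-0.30 to -0.17), Ccnt2 at -0.19 (-0.31 to -0.07) and Setd2 at -0.16 (-0.24 to -0.09), and these were the 4 members whose levels did not overlap. As ratios to si-NC, these were 0.835 for Larp7 and 0.840 for Ep300. Cdk9 at 0.12 (0.03 to 0.21) and Hexim1 at 0.07 (0.00 to 0.14) lay slightly above 0. Crebbp, Med1 and Ccnt1 had intervals that held 0, from -0.12 to 0.10, from -0.20 to 0.02 and from -0.14 to 0.20, so a change in them up to these bounds could not be seen at this depth.

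In this pair of libraries the change across all genes went with exon length (Spearman's rho -0.40) and with GC content (rho 0.42). GC content was that of each gene's longest protein-coding transcript. Both rho values describe genes of the same 2 libraries. The members that lay lowest, Larp7 excepted, have a long summed length of annotated exons, of 11234 bases for Ep300, 12345 for Ccnt2 and 10537 for Setd2. Ccnt1 (9157 bases), Med1 (8753) and Crebbp (7508) are also long, and lay at 0.03, -0.09 and -0.01. With a correction for exon length and GC content, Ep300 was at -0.11, Ccnt2 at -0.01, Setd2 at 0.01 and Larp7 at -0.29. Markers moved in the same pair of libraries: the myotube markers Ckm (0.71) and Acta1 (0.61) of 8 were called higher with 6 of 8 above 0 (Ttn was at -0.16 and Myh1 at -0.07), and the proliferation markers Mki67 (-0.62), Bub1 (-0.61) and Top2a (-0.60) of 8 were called lower and all 8 were below 0. The summed level went from 1590 to 2320 FPKM for the myotube list, of which Acta1 made up 1009 and 1537 FPKM, and from 276 to 200 FPKM for the proliferation list. Of the satellite or reserve cell markers 0 passed the threshold, Pax3 was listed at 0 in si-hnRNPL and the summed level was 191 FPKM in si-NC and 174 FPKM in si-hnRNPL. Of the fibroblast, endothelial, immune and nerve markers, Sox10 was listed at 0 in both libraries and Pecam1 and Cdh5 in si-hnRNPL, and the summed level, mostly Dcn, was 335 and 244 FPKM. Their part in the members' values was not tested.

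The other genes of these steps were read as 10 lists of 117 genes, of which 112 averaged at least 1 FPKM over MB and MT. Of these, 6 were called higher (5.36%) and 36 lower (32.1%), with a median of -0.35, against 14.6%, 28.9% and -0.21 over all genes. With centring, 13 were called higher and 22 lower. In si-hnRNPL over si-NC, 0 of 111 passed the threshold either way and the median was -0.04. Genes named below beyond the largest rise and fall of a list were chosen after their values were seen, because the counts were small.

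Of the other acetyltransferases, p160 coactivators and BET readers, 3 of 14 were higher in MT: the nuclear receptor coactivator Ncoa1 at 1.06, and the acetyltransferases Kat2b (PCAF) at 0.88 and Kat6b at 0.71. In the same list 3 were lower, Kat2a (GCN5), the paralogue of Kat2b, at -1.39, the arginine methyltransferase Carm1 at -1.0 and Kat7 at -0.61. Centring gave 4 higher and 2 lower in this list. Kat2a went from 24.1 FPKM in MB to 8.58 FPKM in MT and Ncoa1 from 2.66 to 6.62 FPKM, so unlike Ep300 and Crebbp these coactivators lay past the threshold. Of 31 other Mediator subunits, 0 were higher and 11 lower, with a median of -0.38 near the -0.33 of Med1. With centring, 0 were higher and 7 lower, and the median was -0.17 against -0.12 for Med1. Med18, a head module subunit, changed most, at -1.31, and Med7 of the middle module had the highest value at 0.29.

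Cohesin and its loader, which hold chromatin loops between enhancers and promoters, had 1 of 10 higher, the loader Nipbl at 0.60, and 3 lower, the ring subunits Rad21 (-0.78) and Smc1a (-0.60) and the subunit Stag1 (-0.63). After centring, 2 of 10 were higher and 0 lower.

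Around the 7SK particle, Mepce, the enzyme that caps 7SK RNA, was lower in MT at -0.64, and Hexim2, the paralogue of Hexim1, was just inside the threshold at 0.576 (0.39 to 0.76), at 3.62 FPKM in MT against 2.1 FPKM in MB. Mepce thus lay on the side of Larp7, and Hexim2 on the side of Hexim1. Centred on the median of all genes, Mepce was at -0.42, inside the threshold, and Hexim2 at 0.79, past it. Of 7 super elongation complex genes, which carry active P-TEFb to Pol II, 0 were higher and 2 lower, Mllt1 (-0.91) and Eaf1 (-0.81), and the scaffold Aff4 had the highest value at 0.54. Centring gave 1 higher and 2 lower among these genes. Of 6 NELF and DSIF genes, 3 were lower, all of NELF (Nelfa -0.88, Nelfe -0.87 and Nelfcd -0.77), and 0 were higher, with Supt5 of DSIF the least changed at -0.16. With centring, 2 of the 6 were lower and 0 higher.

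Among 13 genes of the PAF1 complex and other elongation factors, Tcea2 was higher (0.84), and the subunits of the histone chaperone FACT, Ssrp1 (-1.42) and Supt16 (-0.81), were lower. Of the 6 other CTD kinase genes 0 passed the threshold, from Cdk7 of TFIIH at 0.35 to cyclin K (Ccnk) at -0.57. Of 12 Pol II subunits, 9 were lower and 0 higher, with a median of -0.73, from Polr2h at -1.09 to Polr2k at -0.03, and after centring 5 were lower. Of 11 other H3K36 methyltransferases and demethylases, the demethylase Kdm4b was higher (0.66), and the dimethyltransferase Whsc1 (-1.25) and the demethylase Kdm2b (-1.12) were lower, so Setd2 and Whsc1 lay on opposite sides of 0 before the length and GC correction. With centring, 4 of the 11 were higher and 2 lower.

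In si-hnRNPL over si-NC the lists stayed inside the threshold, with medians from -0.25 for cohesin and loader to 0.15 for the Pol II subunits. In the cohesin list 9 of 10 genes were below 0, down to -0.34 for Smc3, and in the Pol II list 10 of 12 were above 0, up to 0.32 for Polr2i, while Polr2a, the catalytic subunit, had the lowest value at -0.15. The largest values among all lists were those of Kdm4b at 0.35 (0.25 to 0.45) and Smc3 at -0.34 (-0.40 to -0.28). No list value was corrected for exon length or GC content, with which the change over all genes went in this pair (rho -0.40 and 0.42). The part of these trends in the list values was not tested.

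**Figure D4:**
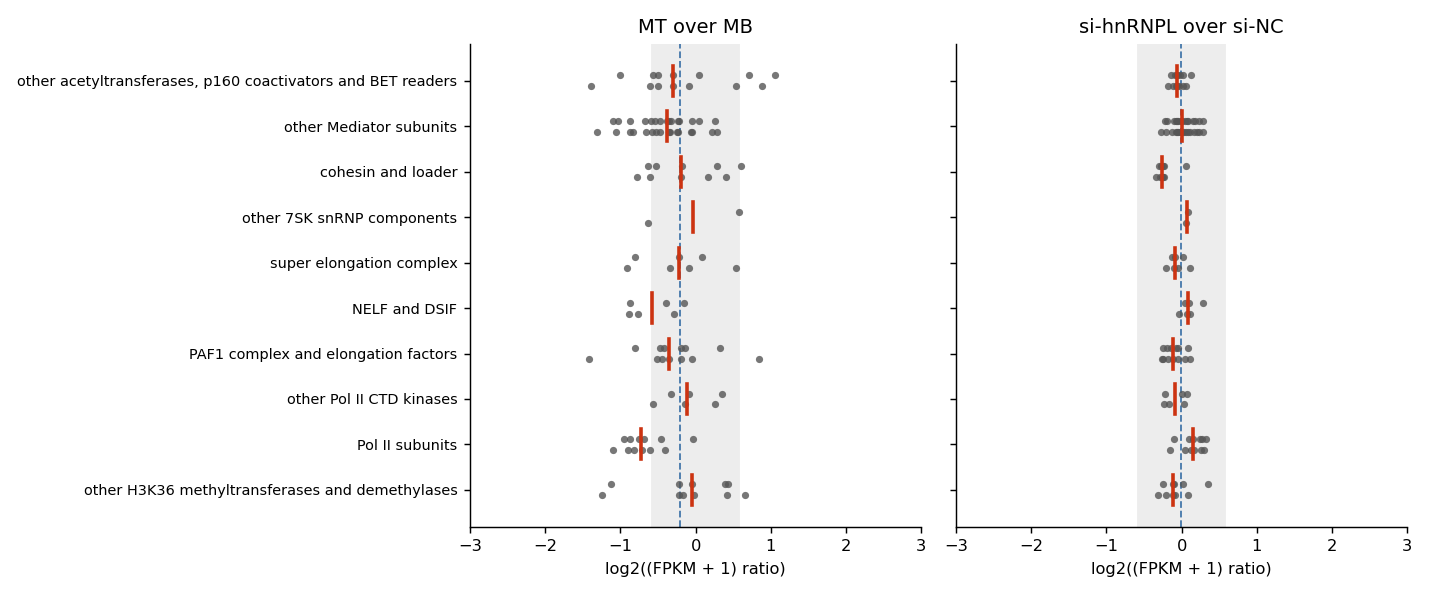
Log2((FPKM + 1) ratio) of each gene (grey points) in the 10 related lists, for MT over MB and for si-hnRNPL over si-NC, with the list median (red bar), the median of all genes (dashed line) and the band of 0.58 in either direction (grey). On the left the Pol II subunits have a median of -0.73, and on the right every point lies inside the band.

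The total RNA tables also hold assembled transcript units without a gene symbol, a readout that did not enter the choice of members. In all, 57 of the 36780 units lay in member loci, 40 in Crebbp, 9 in Ccnt2, 6 in Ep300 and 2 in Ccnt1, and 0 in Med1, Cdk9, Hexim1, Larp7 and Setd2. Only 1, in Ccnt2, touched an annotated exon of its host, so the rest were intronic. Their median level was 0.804 FPKM in MB and 2.08 FPKM in MT, and 39 were called higher and 0 lower, with a median change of 0.73. Over all 36780 units 19.8% were called higher and 3.09% lower, with a median of 0.24. Unlike the share over genes, this one had no minimum level, and the added 1 FPKM keeps the lowest units from being called. The units in member loci all stood at 1.11 FPKM or more in MT, so the shares are not directly comparable.

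The units in Crebbp had a median of 0.771 FPKM in MB and 1.89 FPKM in MT, a median change of 0.69, and all 40 lay above the -0.09 of the Crebbp gene entry. The 6 units in Ep300 had a median of 0.854 FPKM in MB and 2.43 FPKM in MT, a median change of 0.96, and all lay above the -0.03 of the gene. In Ccnt2 the median went from 1.06 to 2.78 FPKM (0.94), and 8 of 9 lay above the 0.60 of the gene. The 2 units in Ccnt1 were at 2.54 and 4.79 FPKM in MB and 4.66 and 4.37 FPKM in MT, so 1 was higher and 1 slightly lower. Units within 1 locus share its transcription and are not separate replicates, and they rested on few fragments, about 82.0 in MB and 269 in MT over the 6 of Ep300. The tables give no strand for them, so unspliced RNA of the host gene and a separate transcript cannot be told apart.

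**Figure D5:**
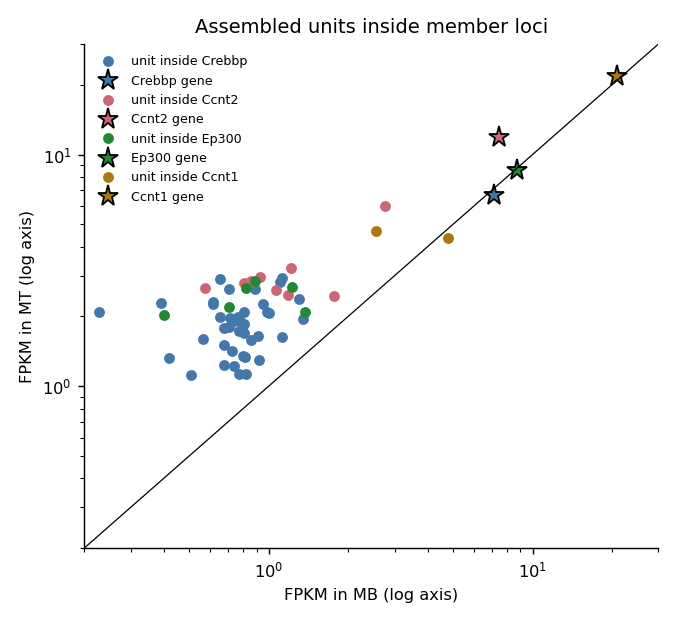
FPKM in MT (vertical axis) against MB (horizontal axis), both log scales, for the 57 assembled units inside member loci (circles) and the 4 host genes (stars), with the line of equal levels. Of the units 56 lie above the line, while Ep300 and Crebbp themselves lie slightly below it at ratios of 0.980 and 0.934.

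For each member the entry with the most similar pattern was found by the Euclidean distance of log2(FPKM + 1) over the 4 libraries, among 10059 symbol entries of at least 1 FPKM in all of them. The nearest were Bcr for Ep300 (distance 0.13), Zbtb21 for Crebbp (0.07), Uggt1 for Med1 (0.07), Pitpnm1 for Cdk9 (0.19), Arhgef5 for Ccnt1 (0.17), Phka2 for Ccnt2 (0.14), Smad3 for Hexim1 (0.19), 1810055G02Rik for Larp7 (0.18) and Akap11 for Setd2 (0.10). For Hexim1, Smad3 gave 12.6, 21.5, 34.5 and 38.9 FPKM in MB, MT, si-NC and si-hnRNPL against 11.1, 20.8, 35.5 and 37.4 FPKM for Hexim1 itself. No member was the nearest entry of another. With 4 libraries such likeness is a description.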

How the data were processed

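The deposited tables give FPKM per gene with a 95% interval and a status, which the authors made by trimming reads, discarding those under 36 bp, aligning to mm9 with TopHat 2.0.13 and estimating abundance with Cufflinks 2.1.1. The gene annotation and whether strand was used in the quantification are not given in the sources used here. The polyA kit does not mark strand as labelled, so overlapping antisense RNA could enter those values. Fragment totals were not given; from the interval widths, effective fragments over all entries were 59960176 in MB, 54442423 in MT, 21341051 in si-NC and 14592480 in si-hnRNPL.

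Entries were matched by symbol and locus, entries with status FAIL were dropped, and log2((FPKM + 1) ratio) was computed with Python 3.11.15, pandas 2.3.3 and numpy 2.4.6. Interval half-widths were added in quadrature. Loci are those of the deposited tables, and strands, exon counts, exon lengths and GC came from GENCODE vM1 on mm9; 90.8% of tested genes had an exon length in MT over MB and 88.9% in si-hnRNPL over si-NC, and 88.6% and 87.4% had a GC value. The calculations were tested on simulated data. Alternatives were the pseudocount, low-value filter, threshold, scaling, summed symbols and a correction in 20 bins of exon length; a joint length and GC correction and scaling over protein-coding genes were chosen after seeing the data. Genes named by rule were all members, Hnrnpl, each list's largest rise and fall, and each member's nearest entry. Other named genes of the related lists were chosen after their values were seen. The members and lists were chosen with earlier results of these data known.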

Additional observations from a re-analysis of the deposited data

How the results depend on the processing

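With 1 library per condition nothing can be left out, and intervals cover counting error only; the depth of the polyA libraries limits changes of Crebbp, Med1 and Ccnt1. No paired analysis was possible because each group holds 1 library. For MT over MB, the 2 members called higher became 7 and the 1 called lower became 0 with both libraries scaled to the same sum over symbol entries. Those sums were 621226 FPKM in MB and 296038 FPKM in MT. Scaling to the sum over protein-coding genes called 3 members higher (Setd2 added). Over all 11469 genes, 1670 called higher and 3314 lower became 6841 and 671 with the symbol sum, and 2951 and 1747 with the protein-coding sum. The medians of all genes were then 0.74 and 0.13. Of the members, 0 were called higher at a log2 change of 1, and 1 was called higher after correction for exon length, alone or with GC content. The members' median of -0.03 became 0.19 centred, 0.23 scaled to the upper quartile, 0.93 scaled to the symbol sum, 0.32 scaled to the sum over protein-coding genes, -0.20 corrected for exon length and -0.16 corrected for exon length and GC content. In the related lists, 6 higher and 36 lower became 13 and 22 with centring. For si-hnRNPL over si-NC the median of -0.09 became -0.20 scaled to the symbol sum, 0.027 corrected for exon length and 0.020 corrected for exon length and GC content, and the counts of 0 higher and 0 lower held under every alternative run. Of the single members' values under these alternatives, 50 of 90 moved by more than their interval in MT over MB and 17 of 90 in si-hnRNPL over si-NC. The 90 include values that could not move. The threshold of 1 changes only the call, and summing symbols changes nothing for members with 1 entry each.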
